A study of Mus musculus with 5 samples.

Results

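Transcript levels of 35 marker genes of lymphocytes, mast cells and neutrophils were examined in RNA-seq of primary adipocytes from mouse epididymal fat. The genes were listed by cell type, and a gene was measured where the expression table had a row with its symbol, which held for 34 of the 35, among 24330 symbols in all. Of the 34, 27 had a mean of at least 0.1 FPKM (fragment numbers divided by transcript length and by library size), 13 had a mean of at least 1, and 7 lay under 0.1. Ly6g, the neutrophil surface antigen, was not analysed here. The other members comprised 2 pan-leukocyte genes, 10 T cell genes, 7 natural killer (NK) and cytotoxic genes, 8 B cell and plasma cell genes, 6 mast cell genes and the neutrophil gene Csf3r. The RNA came from 3 libraries of wild type C57BL/6 mice aged 17 weeks and carried no treatment in the labels. The series also lists 2 bisulfite libraries of such adipocytes, 1 wild type and 1 with adipocyte-specific Dnmt1 knockout, which were not analysed here, so that no genotypes were compared. The question these data can address is how much RNA of these immune cells the adipocyte preparations held and how far the libraries differed.

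Adipose tissue holds resident immune cells between its fat cells. T cells recognise antigen through a receptor whose signal passes through the CD3 chains, B cells through an immunoglobulin whose signal passes through CD79A and CD79B, and NK cells kill with perforin and granzymes. Mast cells sit near vessels, depend on stem cell factor, which binds the receptor KIT, and store proteases such as chymases, tryptases and carboxypeptidase A3 in granules, whereas neutrophils are short-lived blood cells called out by the cytokine G-CSF.

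The libraries carried the RNA that their label names together with that of other cells. All 12 adipocyte genes reached 1 FPKM in every library, as did 14 of 14 macrophage genes and 10 of 10 endothelial genes. The summed FPKM of the adipocyte list was 13892, 4572 and 4697 in replicates 1, 2 and 3, and that of the macrophage list was 3520, 2605 and 2922. The 8 erythroid and platelet genes, a sign of blood, summed to 8511, 12749 and 9695. Replicate 1 stood apart in a further way, since the 8 spermatid genes summed to 1272 FPKM there against 23.2 and 9.74 in the others. The number of symbols listed at 0 was 5829, 8963 and 7611. The table gives no read counts, so the depth of a library and the limit of detection are unknown, and a listed 0 can be a failed estimate. No label states that separate animals gave the libraries, so errors and p-values measure only how these samples vary, and that variation may be technical. In such bulk RNA, fewer cells of a type and less RNA per cell cannot be told apart.

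Most of the lymphocyte genes were scarce, whereas pan-leukocyte and mast cell protease transcripts were readily measured. Of the 34 members, 9 reached 1 FPKM in every library, against 45.5% of all symbols. These 9 were Cd52, Ptprc, Cd79a, Cd79b, Mcpt4, Tpsb2, Cma1, Kit and Csf3r. A further 6, Cd2, Lck, Gzma, Fcmr, Mzb1 and Cpa3, reached 1 FPKM in at least 1 library, and 19 in none. The median member stood at 0.427, 0.334 and 0.777 FPKM in replicates 1, 2 and 3, where the median symbol stood at 1.19, 0.511 and 0.747. No member was listed at 0 in all libraries, against 5456 of the 24330 symbols. In replicate 2, 5 of the 34 members and 8963 symbols were listed at 0.

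**Figure D1:**
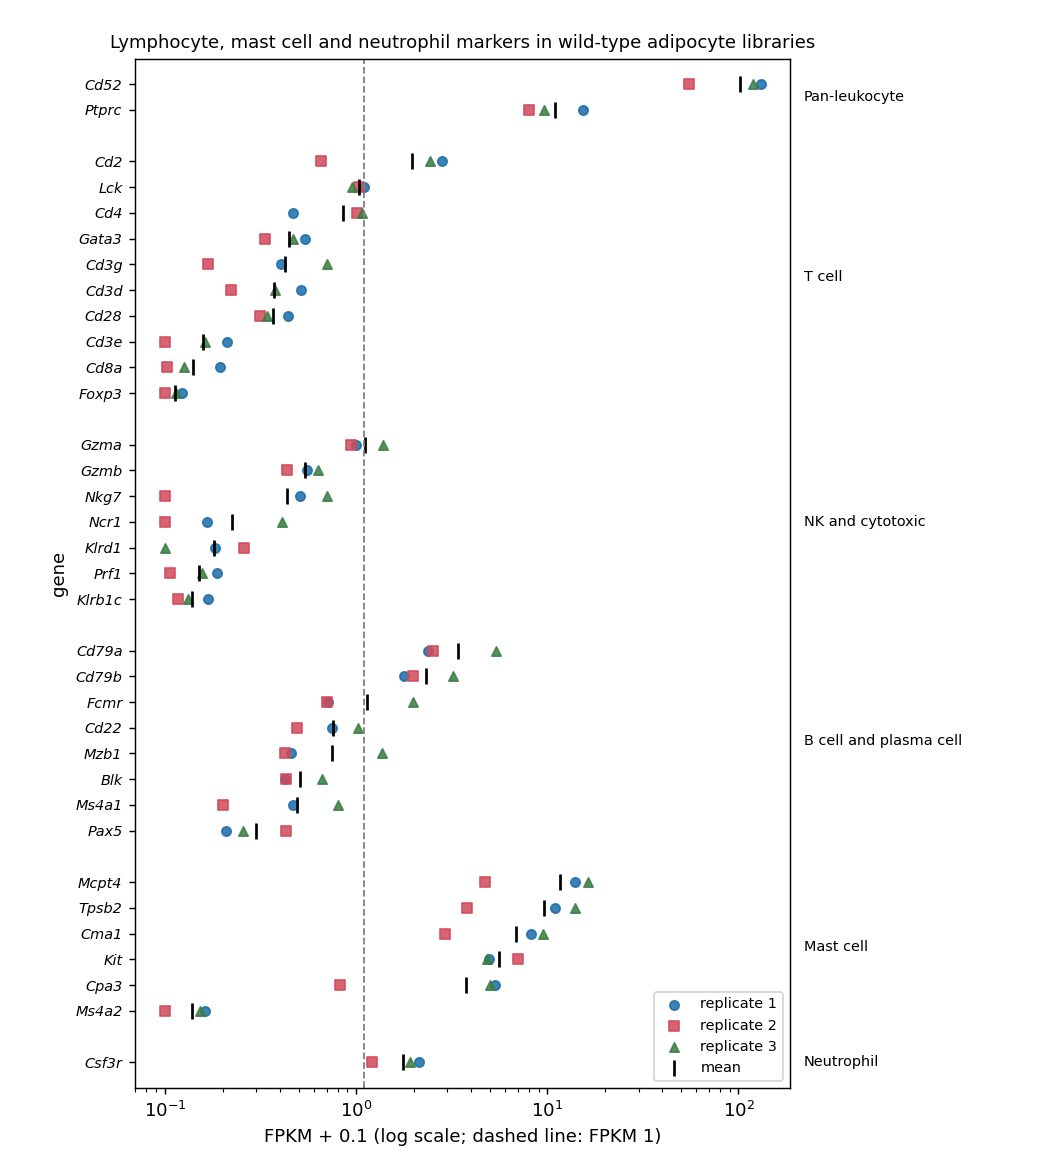
FPKM of the 34 measured members, plus 0.1, on a log axis, with 1 symbol per wild-type library, a black tick at the mean and a dashed line at 1 FPKM. Cd52 lies farthest right at 54.9 to 130.5 FPKM, the mast cell proteases Mcpt4, Tpsb2 and Cma1 lie at 2.83 to 16.3, and most T and NK cell genes lie left of the dashed line.

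Cd52 was the most abundant member. This gene (chromosome 4, 134093538 to 134095073) encodes a short glycoprotein anchored to the surface of lymphocytes and other leukocytes, and in mammals also of the epididymis. It stood at 130.5, 54.9 and 119.6 FPKM in replicates 1, 2 and 3, a mean of 101.7 ± 40.9 (SD, n = 3), above 97.1% of symbols. Replicate 2 was lowest, and the other libraries lay close to each other. Ptprc encodes CD45, the tyrosine phosphatase on all nucleated blood cells, and stood at 15.2, 7.90 and 9.53 FPKM. Cd52 therefore exceeded Ptprc in each library, by 3.09, 2.78 and 3.64 units of log2(FPKM + 0.1). Both genes are also expressed by macrophages. Of 10 epididymis genes, 6 were listed at 0 in all libraries, and their summed FPKM of 8.75, 0.301 and 0.278 came in replicate 1 from Cst8 at 8.61. The part of macrophages and of epididymis in the Cd52 level was not tested.

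Other genes shared by leukocytes were high as well. Of 12 such genes, 9 reached 1 FPKM in every library. Arhgdib, a regulator of small GTPases, led them at 85.6, 73.3 and 110.1 FPKM, followed by the lysosomal Laptm5 at 77.8 ± 12.9 (SD, n = 3) and the actin-bundling Lcp1 at 52.1 ± 10.8. The summed FPKM of the list was 404, 271 and 418, with replicate 2 lowest.

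T cell genes were low, and none of the 10 reached 1 FPKM in every library. By mean level they ran from Foxp3, above 26.4% of symbols, to Cd2, above 55.6%. The adhesion molecule Cd2, found on T and NK cells among others, had the highest mean and stood at 2.71, 0.558 and 2.34 FPKM. It was thus 4.87-fold higher in replicate 1 and 4.20-fold higher in replicate 3 than in replicate 2. Lck, the kinase that starts signalling from the T cell receptor, was the steadiest member, at 1.003, 0.937 and 0.847 FPKM, with a coefficient of variation of 8.46%.

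The CD3 genes lie within 40 kb of each other on chromosome 9 (44969572 to 45009590) and encode the signalling chains of the T cell receptor. Cd3d stood at 0.413, 0.121 and 0.275 FPKM. Cd3g stood at 0.302, 0.0678 and 0.602. Cd3e was listed at 0 in replicate 2, with 0.111 FPKM in replicate 1 and 0.0628 in replicate 3. All 3 genes were thus lowest in replicate 2 and under 1 FPKM throughout. Cd28, a costimulatory receptor, stood at 0.342, 0.214 and 0.243 FPKM.

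The coreceptors differed, with Cd4, of helper T cells, above Cd8a, of cytotoxic T cells. Cd4 stood at 0.366, 0.913 and 0.975 FPKM and Cd8a at 0.0936, 0.00273 and 0.0263. The log2 ratio of Cd4 to Cd8a was 1.27, 3.30 and 3.09, a mean of 2.55 ± 1.12 (SD, n = 3). As Cd8a lay under the pseudocount of 0.1, the size of this mean follows the pseudocount, at 0.73 with 1 and 4.27 with 0.01. Of the 7 T cell members with a mean of at least 0.1 FPKM, Cd4 alone was lowest in replicate 1, and replicate 2 was 2.50-fold higher. Cd4 thus did not share the order of Cd3d, Cd3e and Cd3g, which were lowest in replicate 2. Which cells gave the Cd4 RNA was not tested. Of the transcription factors, Gata3, which directs type 2 helper cells and in mouse fat also acts in preadipocytes, stood at 0.441, 0.234 and 0.366 FPKM. Foxp3, the factor of regulatory T cells, was listed at 0 in replicate 2, with 0.0233 FPKM in replicate 1 and 0.0147 in replicate 3. Gata3 exceeded Foxp3 in 3 of 3 libraries, by 1.97 ± 0.202 log2 units, a size set by the pseudocount (0.41 with 1 and 4.10 with 0.01).

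Among 18 other T cell genes, 5 reached 1 FPKM in every library. The highest was Cd247, the zeta chain of the receptor, at 11.5, 10.9 and 9.42 FPKM, far above the CD3 members. Thy1, a surface protein that fibroblasts and vessel cells also carry, stood at 4.47, 8.02 and 15.2, and the adaptor Lcp2, shared with myeloid cells, at 8.99, 5.98 and 7.71. By contrast, Zap70 and Themis were low, and why Cd247 stood so far above them was not tested. The kinase Zap70 stood at 0.120, 0.0563 and 0.226 FPKM, and Themis, a regulator of thymocyte selection, was the lowest of the list, at 0.0111 in replicate 1 and listed at 0 in the others. The cytokine receptor Il7r, at 5.24, 1.89 and 4.07 FPKM, had the order of Cd2, with replicate 2 lowest.

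NK and cytotoxic genes were lower still, and none of 7 reached 1 FPKM in every library. Their highest member was Gzma, a granule protease of killer cells, at 0.902, 0.844 and 1.28 FPKM. Gzmb, the granzyme that activates caspases, followed at 0.451, 0.336 and 0.532. Gzma exceeded Gzmb in each library, by a mean of 1.03 ± 0.147 log2 units (SD, n = 3), which was 0.48 with a pseudocount of 1. Prf1, which encodes the pore-forming perforin, was at 0.0882, 0.00662 and 0.0556 FPKM.

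The remaining NK members had a 0 or a trace in at least 1 library. The granule protein gene Nkg7 was listed at 0 in replicate 2, against 0.410 FPKM in replicate 1 and 0.601 in replicate 3. Ncr1, the activating receptor NKp46, was likewise listed at 0 there, against 0.0651 and 0.307. Klrd1, the CD94 subunit of NK receptors, went the other way, listed at 0 in replicate 3 and highest in replicate 2, at 0.158 FPKM against 0.0835 in replicate 1. Klrb1c, which encodes NK1.1 in C57BL/6 mice and has close relatives in its cluster, stood at 0.0672, 0.0175 and 0.0317 FPKM. Of 12 other NK and innate lymphoid genes, only the chemokine Ccl5 reached 1 FPKM in every library, at 6.78, 3.95 and 4.90. The IL-33 receptor Il1rl1 followed at 1.35, 0.747 and 0.903, and the lowest gene, Gzmk, was listed at 0 in replicate 2.

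B cell genes were led by the partners of the antigen receptor. Cd79a (chromosome 7, 24897511 to 24902197) stood at 2.29, 2.41 and 5.27 FPKM and Cd79b at 1.68, 1.87 and 3.10. Replicate 3 was highest for both, 2.30-fold and 1.84-fold above replicate 1, and the log2 ratio of Cd79a to Cd79b was 0.51 ± 0.212 (SD, n = 3). Cd79a exceeded Cd3e in each library, with a log2 ratio of Cd3e to Cd79a of -4.40 ± 0.8005. Its size depends on the pseudocount, at -1.97 with 1 and -6.12 with 0.01. The pattern of replicate 3 being highest recurred in 7 of the 8 B cell members, against 31% of the 15615 symbols with a mean of at least 0.1 FPKM. All 4 NK and cytotoxic members at that level were also highest there, as were 3 of 5 mast cell members. Among T cell members it was 1 of 7, and among all members 15 of 27.

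Fcmr, the receptor for the constant part of IgM, stood at 0.615, 0.604 and 1.88 FPKM. Mzb1, a chaperone of antibody secretion in plasma cells and marginal zone B cells, stood at 0.354, 0.323 and 1.26. Replicates 1 and 2 were close to each other for these genes, and replicate 3 was 3.06-fold and 3.56-fold above replicate 1. The inhibitory lectin Cd22 stood at 0.646, 0.393 and 0.924 FPKM, Ms4a1, which encodes CD20, at 0.367, 0.1001 and 0.707, and the kinase Blk at 0.323, 0.330 and 0.565. Pax5, the factor that fixes B cell identity, was the exception, at 0.109, 0.331 and 0.155 FPKM with replicate 2 highest. The mesothelial and mural lists were also highest in replicate 3, in 5 of 5 and 6 of 6 genes, and the part of such cells in the B cell order was not tested.

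Of 19 other measured genes of B and plasma cells, 7 of the 18 with a mean of at least 0.1 FPKM were highest in replicate 3 and 10 in replicate 1. Of the 19, 9 reached 1 FPKM in every library, led by Sdc1 at 21.6, 19.2 and 39.6 FPKM, Cd37 at 25.9, 15.6 and 28.3 and Ebf1 at 19.0, 14.7 and 13.8. These are not particular to B cells, since Sdc1 is also an epithelial proteoglycan, Cd37 a tetraspanin of several leukocytes and Ebf1 a factor of adipocytes. Jchain, which joins IgM and IgA units in plasma cells, stood at 1.73, 0.604 and 1.20, and the complement receptor gene Cr2 was lowest at 0.00450, 0.0452 and 0.0766.

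Of the mast cell proteases, Mcpt4 and Tpsb2 had means of 11.6 and 9.46 FPKM, near the 10.9 of Ptprc, Cma1 had 6.79, and Cpa3 had 3.63, near the 3.32 of the B cell gene Cd79a. Mcpt4, the main chymase of mouse connective tissue mast cells (chromosome 14, 56059744 to 56062310), stood at 13.9, 4.62 and 16.3 FPKM. The tryptase gene Tpsb2 stood at 10.8, 3.70 and 13.9, and the chymase gene Cma1 at 8.13, 2.83 and 9.40. Replicate 2 was lowest for each, with replicate 1 above it 3.005-fold for Mcpt4, 2.92-fold for Tpsb2 and 2.87-fold for Cma1. Cpa3, which encodes carboxypeptidase A3 (chromosome 3, 20215616 to 20242181), stood at 5.25, 0.719 and 4.94 FPKM, 7.30-fold higher in replicate 1 and 6.87-fold higher in replicate 3 than in replicate 2. For these 4 protease genes replicates 1 and 3 lay together and apart from replicate 2. The ratio between the chymases was steady, with Mcpt4 over Cma1 at 0.76, 0.69 and 0.79 log2 units. Mcpt4 and Cma1 lie in the same protease cluster as Gzmb, within 321 kb on chromosome 14, and are related in sequence, as are Tpsb2 and its neighbour Tpsab1, so fragments may have been shared between such copies.

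Kit, the receptor for stem cell factor, did not follow the proteases. Kit (chromosome 5, 75574987 to 75656721) stood at 4.88, 6.94 and 4.73 FPKM, with replicate 2 the highest, 1.42-fold above replicate 1. The log2 ratio of Cpa3 to Kit was 0.10 and 0.06 in replicates 1 and 3 and -3.10 in replicate 2, and its mean was -0.98 ± 1.84 (SD, n = 3), smaller than its spread, with p = 1 by the exact sign-flip permutation test. Without replicate 2 the mean was 0.0826. Kit is also used outside mast cells, by germ cells and pigment cells among others, and which cells gave its RNA here was not tested. The receptor subunit Ms4a2, the beta chain of the high-affinity IgE receptor, was listed at 0 in replicate 2, against 0.0610 FPKM in replicate 1 and 0.0525 in replicate 3.

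Of 13 other mast cell and basophil genes, 9 had a mean of at least 0.1 FPKM. On the centred scale described below, 6 of these were lowest in replicate 2, 2 in replicate 1 and 1 in replicate 3. The background for replicate 2 was 50.4% of symbols from 0.1 to 1 FPKM and 29.7% of those from 1 to 20. The alpha chain of the IgE receptor, Fcer1a, stood at 0.770, 0.146 and 0.632 FPKM, and the amine transporter Slc18a2 at 0.459, 0.142 and 0.334. The peptide receptors Mrgprb1 and Mrgprb2 had 0.143 and 0.102 FPKM in replicate 1, 0.180 and 0.110 in replicate 3, and were listed at 0 in replicate 2. Tpsab1, the other tryptase, stood at 0.269, 0.101 and 0.557. The proteases Mcpt1 and Mcpt2, of mucosal mast cells, and Mcpt8, of basophils, were listed at 0 in all libraries. Of the 13 genes, 5 reached 1 FPKM in every library, led by Fcer1g, the gamma chain that macrophages share, at 143.0 ± 16.3 (SD, n = 3), the transcription factor gene Gata2, which endothelial cells also use, at 8.73, 15.7 and 16.7, and Hpgds, the prostaglandin D synthase, at 4.41, 3.095 and 3.29. The histamine-forming enzyme Hdc, at 2.52, 2.88 and 4.19 FPKM, was lowest in replicate 1.

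**Figure D2:**
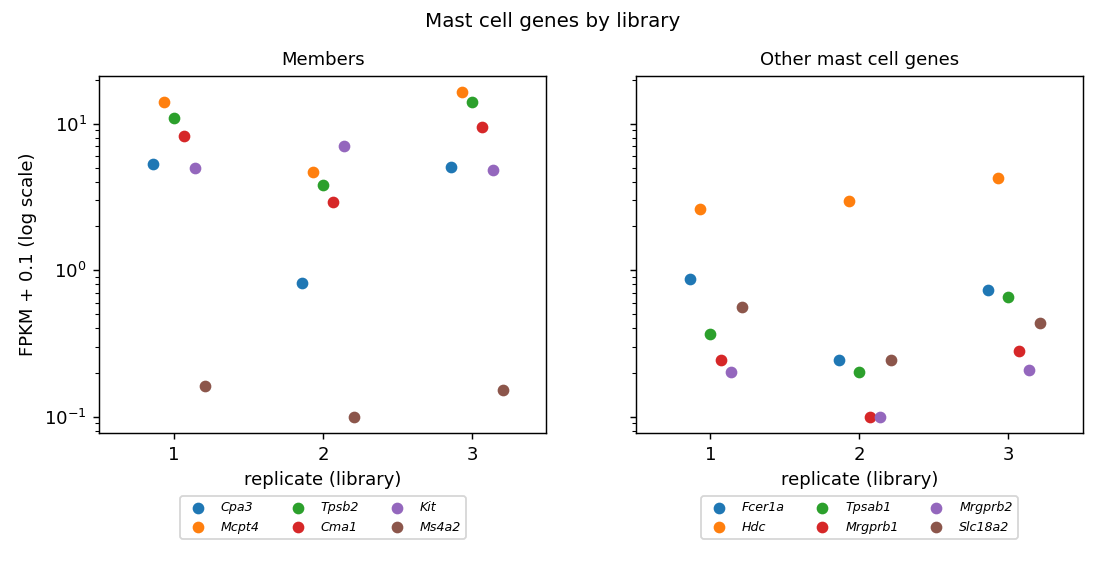
FPKM plus 0.1, on a log axis, of the 6 mast cell members (left) and of 6 of the 13 other mast cell and basophil genes (right) in each wild-type library, 1 point per gene. Fcer1g, Gata2, Hpgds, Mitf, Mcpt1, Mcpt2 and Mcpt8 of that list are not drawn, of which Gata2 was lowest in replicate 1. Mcpt4, Tpsb2, Cma1 and Cpa3 are lowest in the middle column, at 4.62, 3.70, 2.83 and 0.719 FPKM while Kit is highest there at 6.94.

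Promoter windows are shown for Cpa3, Mcpt4 and Cma1, which were at least 2-fold lower in replicate 2, and for Kit and the neighbouring Gzmb, which were not. Each runs from 250 bases before to 50 bases after the RefSeq start site in GRCm38.p6, 5′ to 3′ on the gene's strand. Capitals mark every CpG and every GATAA or its reverse complement TTATC, the core letters read by GATA factors, which do not overlap CpG.
Cpa3, chr3:20242132-20242431, minus strand: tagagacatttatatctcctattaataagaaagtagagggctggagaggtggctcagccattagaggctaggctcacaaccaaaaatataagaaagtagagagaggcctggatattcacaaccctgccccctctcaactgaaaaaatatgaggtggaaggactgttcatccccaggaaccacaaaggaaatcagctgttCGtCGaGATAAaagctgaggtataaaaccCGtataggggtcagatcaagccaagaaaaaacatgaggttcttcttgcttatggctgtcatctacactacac
Mcpt4, chr14:56062261-56062560, minus strand: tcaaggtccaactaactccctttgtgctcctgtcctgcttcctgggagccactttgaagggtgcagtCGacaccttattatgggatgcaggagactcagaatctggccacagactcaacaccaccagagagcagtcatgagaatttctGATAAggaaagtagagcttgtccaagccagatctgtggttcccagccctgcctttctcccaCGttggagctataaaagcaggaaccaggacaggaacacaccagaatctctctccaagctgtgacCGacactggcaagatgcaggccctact
Cma1, chr14:55944626-55944925, minus strand: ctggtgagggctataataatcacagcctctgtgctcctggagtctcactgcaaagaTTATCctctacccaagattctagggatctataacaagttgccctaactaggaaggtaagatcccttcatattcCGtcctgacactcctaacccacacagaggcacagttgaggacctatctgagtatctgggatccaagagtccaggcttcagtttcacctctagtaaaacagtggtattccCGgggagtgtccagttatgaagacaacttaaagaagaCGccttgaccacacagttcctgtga
Gzmb, chr14:56262285-56262584, minus strand: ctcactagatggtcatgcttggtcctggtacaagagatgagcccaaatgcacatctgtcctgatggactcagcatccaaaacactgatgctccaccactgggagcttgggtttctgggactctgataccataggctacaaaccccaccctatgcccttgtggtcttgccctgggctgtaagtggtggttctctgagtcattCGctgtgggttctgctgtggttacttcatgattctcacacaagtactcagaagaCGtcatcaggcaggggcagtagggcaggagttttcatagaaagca
Kit, chr5:75574737-75575036, plus strand: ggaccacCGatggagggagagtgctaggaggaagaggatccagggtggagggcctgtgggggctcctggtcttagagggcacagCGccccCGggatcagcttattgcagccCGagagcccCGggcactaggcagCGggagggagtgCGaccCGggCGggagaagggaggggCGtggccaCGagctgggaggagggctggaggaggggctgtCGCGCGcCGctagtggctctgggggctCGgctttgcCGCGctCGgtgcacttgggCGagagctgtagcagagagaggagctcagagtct
The letters GATAA began 45 bases before the start site in Cpa3 and 102 before it in Mcpt4, and TTATC began 194 before it in Cma1. Neither was found in the Gzmb and Kit windows. At least 1 occurred in 25.9% of the 27025 RefSeq promoters, in 22.8% of the 17195 whose symbol had a row in the expression table, and in 9 of the 25 members with a window, 4 of them among the 5 mast cell genes. The match did not follow the 2-fold difference over the members. Cd3g had a match and was also at least 2-fold lower in replicate 2, whereas Fcmr had a match and was not. Cd8a, Foxp3, Klrb1c and Ms4a2 had a match but means under 0.1 FPKM, and Nkg7 was 2-fold lower without a match. Such a match describes letters and shows no binding.

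The windows also differed in CpG, the dinucleotide that Dnmt1 keeps methylated. Kit held 20 CpG, whereas Cpa3, Mcpt4 and Cma1 held 3 each and Gzmb 2. Over the 25 members with a window the median was 4, against 13 over 17195 symbols with a window and a row in the table. Of the members, 3 had at least 10 CpG, namely Pax5 with 23, Gata3 with 22 and Kit with 20, whereas 56.5% of those symbols did. The median ratio of observed to expected CpG was 0.203 in members and 0.568 in those symbols. The windows of Cd52, Cd2, Cd4, Cd28, Klrd1, Cd79b, Ms4a1, Blk, Mzb1 and Tpsb2 and methylation itself were not analysed here.

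**Figure D3:**
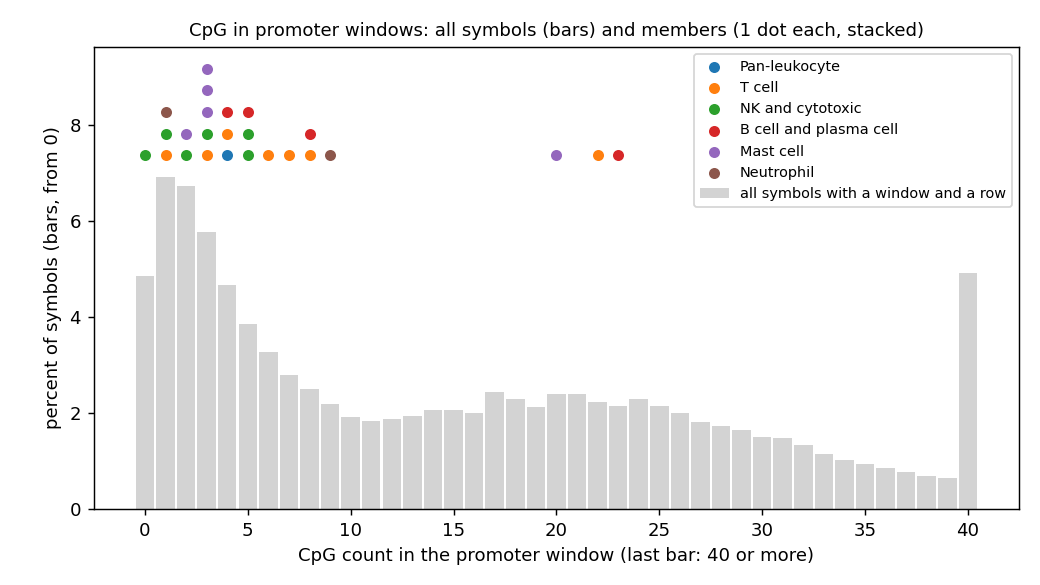
Number of CpG in the 300-base promoter window on the horizontal axis, with grey bars for the percent of the 17195 symbols with a window and a row in the table, and 1 stacked dot for each of 25 members, coloured by cell type. The height of a dot carries no percent. All but Kit, Gata3 and Pax5 lie at 9 CpG or fewer.

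The neutrophil gene Csf3r, the receptor for G-CSF, stood at 2.04, 1.11 and 1.81 FPKM, a mean of 1.65 ± 0.483 (SD, n = 3), and was lowest in replicate 2. Monocytes carry this receptor too. Of 18 other neutrophil genes, 5 reached 1 FPKM in every library. The gelatinase Mmp9 led them at 14.0, 20.2 and 19.8 FPKM, followed by the iron-binding lipocalin Lcn2 at 11.6, 8.53 and 9.85 and the granule protease Prtn3 at 4.57, 3.78 and 5.02. Adipocytes also express Lcn2. The calprotectin genes S100a8 and S100a9, very abundant in neutrophils, stood at 3.74, 2.38 and 3.79 FPKM and at 2.76, 1.47 and 2.25 FPKM. The chemokine receptor Cxcr2 was listed at 0 in replicate 2 and stood at 0.0907 and 0.0496 in the others, and the granule gene Ngp was lowest, at 0.0287 in replicate 1 and listed at 0 elsewhere.

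Ligands of 2 receptors among the members were above the receptors themselves. Kitl, the stem cell factor that binds KIT, stood at 35.2, 47.6 and 40.6 FPKM, above Kit in every library. Csf3, which encodes G-CSF, stood at 12.7, 31.0 and 30.03 FPKM, above Csf3r in every library. The neutrophil attractants Cxcl1 and Cxcl2 topped the list at 536 ± 217 and 378 ± 122, followed by Cxcl12 at 124, 204 and 256. Of 16 ligand genes, 12 reached 1 FPKM in every library. The T cell growth factor Il2 and the mast cell growth factor Il3 were listed at 0 in all libraries, and Il5 was listed at 0 in replicate 2.

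Replicate 2 was the library in which members were most often lowest. Values were put on the log2(FPKM + 0.1) scale and centred on each library's median over symbols with a mean of at least 1 FPKM, which was 3.29, 3.08 and 3.25. Of the 27 members with a mean of at least 0.1 FPKM, 16 were lowest in replicate 2, against 31.3% of such symbols, 8 in replicate 1, against 38.5%, and 3 in replicate 3, against 30.2%. The background depends on level, since 50.4% of symbols with a mean of 0.1 to 1 FPKM and 29.7% of those from 1 to 20 were lowest in replicate 2. The members counted 8 of 14 in the lower range, which is near that background, and 7 of 12 in the higher range. Among genes of the same cell types that were not members, replicate 2 was lowest for 12 of 16 T cell genes, 7 of 8 NK and innate lymphoid genes, 10 of 18 B and plasma cell genes, 6 of 9 mast cell and basophil genes and 9 of 13 neutrophil genes. Many of these genes lay under 1 FPKM, where the background was 50.4%, and the counts were not matched for level.

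Differences of at least 2-fold set the mast cell proteases apart from most members. On the centred log2(FPKM + 0.1) scale, a value at least 2-fold below both other libraries in replicate 2 was found for 8 of the 27 members, against 3.39% of symbols. In the range of 1 to 20 FPKM it held for 5 of 12 members, which were Cd2, Cpa3, Mcpt4, Tpsb2 and Cma1, against 1.55% of symbols in that range. In the range of 0.1 to 1 FPKM it held for 3 of 14, namely Cd3g, Nkg7 and Ms4a1, against 10.7%. By FPKM alone Cd3d and Cd52 were more than 2-fold lower there and Ncr1 was listed at 0, but none of these passed on this scale. With a pseudocount of 1 the 8 became 4. Replicate 2 was chosen for this count after the data were seen, and no such count was made for replicates 1 and 3. These shares describe libraries with no replicate of their own, and no test was made. Of 12 other leukocyte genes 10 were lowest in replicate 2 but none was 2-fold lower on this scale, where Itgb2 at 60.6, 27.9 and 62.2 FPKM just missed it, and of 14 macrophage genes 5 were lowest there and none was 2-fold lower. Replicate 2 also had the most symbols listed at 0, and the part of depth in these differences was not tested.

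**Figure D4:**
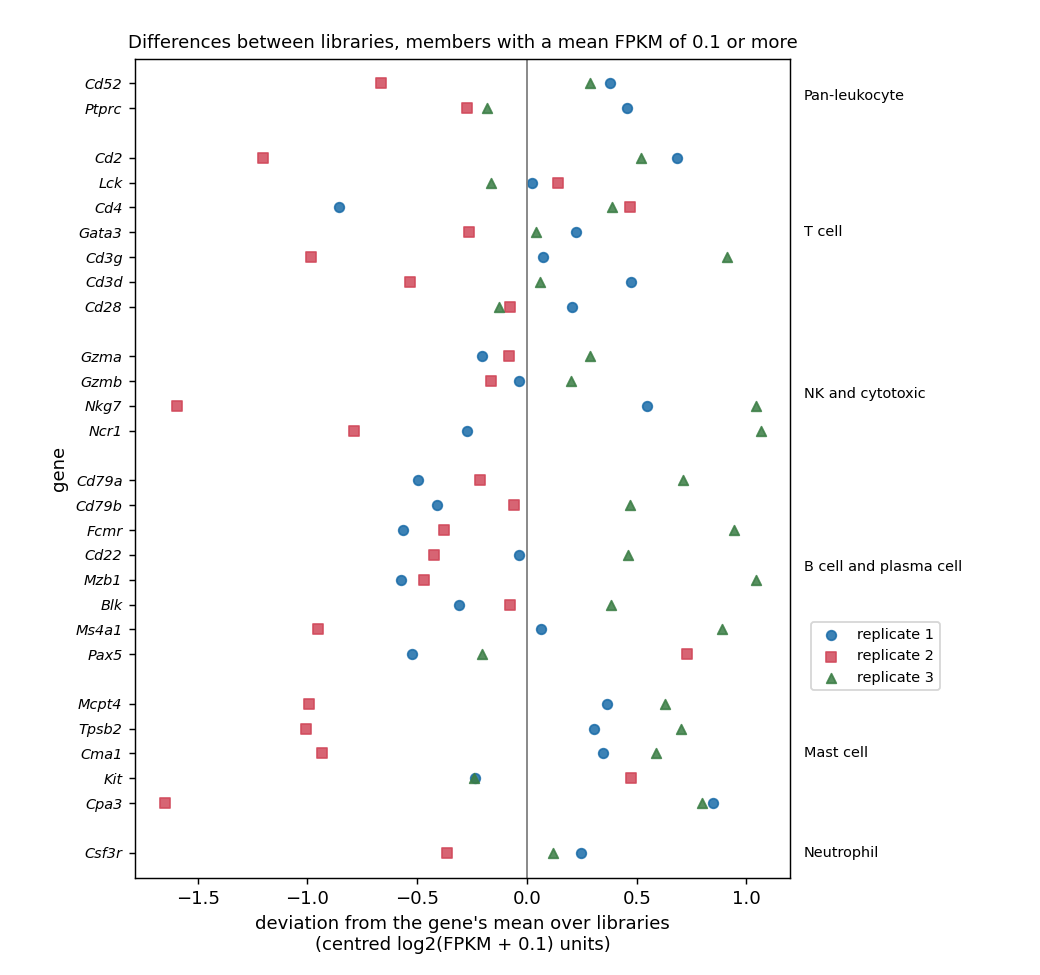
Deviation of each library from the gene's mean over libraries, in centred log2(FPKM + 0.1) units, for the 27 members with a mean of at least 0.1 FPKM, grouped by cell type. Squares of replicate 2 lie farthest left for Cpa3, Nkg7 and Cd2. Triangles of replicate 3 lie farthest right for 7 of the 8 B cell genes and all 4 NK and cytotoxic genes.

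The order of pairs of genes within a library was tested over the 3 libraries. Of 11 measured pairs, 9 had the same sign in every library, and a two-sided exact sign-flip permutation gave p = 0.25 for every such pair (Benjamini-Hochberg adjusted p = 0.306 over 11 pairs). No smaller p than 0.25 exists for 3 libraries, so no pair could pass 0.05. The macrophage gene Adgre1 exceeded Cd3e by 7.69 ± 0.460 log2 units and Cd79a by 3.29 ± 0.701, in 3 of 3 libraries each. The first of these was 4.92 with a pseudocount of 1 and 9.44 with 0.01, since Cd3e lay near 0. Cd3e and Klrd1 had no common order, with log2 ratios of 0.20, -1.37 and 0.70, and their mean was -0.15 ± 1.08 (SD, n = 3), with p = 1 by the same exact permutation. Leaving out replicate 2 made it 0.45.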

How the data were processed

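RNA-seq of 3 wild-type libraries was analysed from a table of FPKM values that the authors deposited on a linear scale, with a column for each library. Trim Galore 0.5.0, Bismark 0.22.1 and featureCounts appear in the submitters' processing notes beside the builds mm10 and GRCm38, with no roles given. The tool behind the FPKM values and any use of strand were not given in the sources used here. Values as small as 6.1e-62 show that fragments were divided by an estimate, so paralogs and overlapping genes are uncertain. FPKM is a share of the RNA, so abundant genes lower all others.

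Of 24889 rows, 27 with a date in place of a symbol were left out. Where a symbol had several rows (273 symbols, none a member), the highest by mean was used. Locus starts were read as counted from 0 and are printed counted from 1. All 34 measured members lay on their RefSeq chromosome, 21 with the same start. Values were analysed as log2(FPKM + 0.1), and 1 FPKM was the detection threshold. Pair ratios were tested by exact sign-flip permutation, and the pair of Csf3r and Ly6g had no value. The 35 members, 23 lists and 12 pairs were chosen with earlier results of these data known. All members were named, and of each other immune or ligand list the 3 highest genes, the lowest and those a result turned on, of which some are not reported here. Other cell types are given by counts and sums. Steps were tested on simulated data with Python 3.11.15, scipy 1.17.1, numpy 2.4.6 and pandas 2.3.3, and figures were drawn with matplotlib 3.10.9. Alternatives covered the pseudocount, threshold, centring, TPM scaling, rows per symbol and leaving out each library.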

Additional observations from a re-analysis of the deposited data

How the results depend on the processing

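Alternatives were run for 22 results, and of 129 values 114 kept their direction, with counts within 1.5 times, the median level within the replicate SD and single-gene differences within 25% or the gap between replicates 1 and 3. Pair ratios were judged by direction alone, and their size moved with the pseudocount where a gene was near 0. The counts lowest in replicates 2 and 3, the count 2-fold lower in replicate 2 and the differences of 5 mast cell genes were added after seeing the data. The number of members at 1 FPKM or more in every library was 9, 14 at a threshold of 0.5 FPKM or after rescaling to TPM, and 9 to 11 when a library was left out. The number lowest in replicate 1 was 8, 5 without centring and 4 among members with a mean of at least 1 FPKM. In that smaller set, 8 were lowest in replicate 2 and 1 in replicate 3, and 5 were 2-fold lower in replicate 2, where fewer genes were counted. Among all measured members 5 were lowest in replicate 3. A pseudocount of 1 brought the 8 members 2-fold lower in replicate 2 to 4. The median member level was -0.77 ± 0.522 log2 units, 0.59 with a pseudocount of 1 and 1.99 among members with a mean of at least 1 FPKM. When a library was left out, the mean log2 ratio of Cd3e to Klrd1 ran from -0.58 to 0.45 and that of Cpa3 to Kit from -1.52 to 0.0826, positive only without replicate 2. Cpa3 in replicate 2 lay below the mean of the others by a centred log2 difference of -2.47, which was -1.65 with a pseudocount of 1, and Kit lay above it by 0.71, or 0.52 without centring. No paired analysis was possible because the RNA samples form 1 group. Depth is unknown and limits the genes near 0.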

Other observations

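Dendritic cell genes, which share the antigen-presenting role of B cells, ranged from the level of lymphocyte members to far above it. Of 8 such genes, 5 reached 1 FPKM in every library. The class II gene H2-Ab1 stood at 610.1, 473 and 478 FPKM in replicates 1, 2 and 3. Itgax, which encodes the integrin CD11c, stood at 18.0, 8.25 and 20.2, and the transcription factor gene Zbtb46 at 8.02, 15.8 and 19.4. Clec9a, Flt3 and Xcr1 of the same list were lower, with means of 1.18, 0.33 and 0.173 FPKM. Which cells gave the RNA of H2-Ab1, Itgax and Zbtb46 was not tested. Siglech, a marker of plasmacytoid dendritic cells, stood at 3.47, 2.54 and 0.983, and was thus lowest where 7 of the 8 B cell members were highest. The platelet gene Pf4, which macrophages also carry, stood at 268, 263 and 214 FPKM, whereas Ppbp, another platelet gene, stood at 2.07, 2.87 and 3.29.

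Retnlg, a resistin-like gene of neutrophils, stood at 3.20, 0.399 and 0.196 FPKM, highest in replicate 1 together with its relative Retn, at 1732, 406 and 400.4. The neutrophil elastase gene Elane, at 0.964, 0.168 and 0.145, was also highest there. Both belong to 13 neutrophil genes outside the members with a mean of at least 0.1 FPKM. On the centred scale 7 of these 13 were highest in replicate 1, 1 in replicate 2 and 5 in replicate 3. Over all symbols at that level, 6670 of 15615 were highest in replicate 1. Elane (chromosome 10, 79886312 to 79888216) lies near the adipocyte gene Cfd (79890853 to 79892660), which stood at 6288, 2058 and 2194 FPKM. Prtn3 (79879667 to 79883172) lies on the other side of Elane and stood at 4.57, 3.78 and 5.02. Whether reads of Retn were assigned to Retnlg, or reads of Cfd to Elane, was not tested.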
